A study of Mus musculus with 12 samples.

Results

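Trp53, the gene of the transcription factor p53, and 9 genes of growth arrest and stress, most of them known p53 targets, were followed in RAW264.7, a macrophage line derived from a virus-induced tumour of the mouse. The 10 genes are Trp53, Mdm2, Cdkn1a, Btg2, Ccng1, Plk2, Plk3, Gadd45a, Gadd45b and Phlda3. They were selected by symbol from the deposited table, which holds 25192 genes, and all 10 passed the filter on low counts that left 14065 genes for testing. Poly(A) RNA was sequenced in 12 libraries, 4 per group. The FA plus LPS group received 10 µM ferulic acid (FA, a phenolic acid of plants) for 12 h, followed by lipopolysaccharide (LPS, a component of the bacterial outer membrane sensed by Toll-like receptor 4) for 24 h. The LPS group was given 1 µg/mL LPS for 24 h, as a model of inflammation, and the labels name no treatment for the control group. Cells given ferulic acid without LPS were not analysed here, and no vehicle is named in the sources used here. Nothing in the labels ties the 4 libraries of a group to separate cultures. The p-values below therefore reflect the variation among these libraries and nothing beyond it, and that variation may be only technical.

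The p53 protein is held low by the ubiquitin ligase Mdm2, and stress such as DNA damage frees it mostly by slowing its breakdown, so its activity is not read from the level of its mRNA. Active p53 switches on genes that halt the cell cycle, repair DNA or kill the cell, and it also switches on Mdm2, which closes a negative feedback loop. Many of its targets have other inputs too. In macrophages, LPS signalling through NF-kB, MAP kinases and cAMP-responsive factors is known to slow division and to induce several arrest and stress genes. The RNA counts used here measure neither DNA damage nor p53 protein, so the part of p53 in the changes below was not tested.

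Library totals ran from 32548423 to 49961581 counts. The first principal component held 85.9% of the variance and separated all 8 libraries given LPS from the 4 control libraries. On the second component, with 6.86% of the variance, FA plus LPS libraries 1 and 4 stood apart at -33.0 and -49.2, against 18.9 and 4.55 for FA plus LPS libraries 2 and 3 and 5.69 to 29.8 for the LPS libraries. Ribosomal protein genes took 20.9% of the counts in FA plus LPS libraries 1 and 4, 13.1% in library 2 and 16.7% in library 3, against 14.1 to 16.3% in the LPS libraries and 7.60 to 9.87% in the control libraries. The 10 macrophage markers, among them Csf1r, Cd68 and Spi1, were present in every library. Their summed level was 2902 to 3115 FPKM in FA plus LPS, 2952 to 3125 FPKM in LPS and 4801 to 5370 FPKM in control. Lyz2 was the largest part of the control sum. It averaged 296 FPKM in FA plus LPS and 245 FPKM in LPS, against 2781 FPKM in control. Csf1r averaged 16.2 FPKM in FA plus LPS, 18.2 FPKM in LPS and 273 FPKM in control. In LPS against control 7 of the 10 markers were called higher and 3 lower. Of 8 markers of other cell types, 4 had no row (Cd3e, Ncr1, Epcam and Hbb-bs), and the other 4 together reached at most 1.49 FPKM in FA plus LPS, 1.30 FPKM in LPS and 0.443 FPKM in control. The B cell marker Cd79a was the 1 of 2 tested among these that was called higher in LPS, at 1.64 CPM in LPS and 0.189 CPM in control. Levels below are CPM (counts scaled to a common library size) on TMM-scaled library sizes, unless FPKM is named, and fold changes are from edgeR's quasi-likelihood test with Benjamini-Hochberg adjustment over all genes tested. In LPS against control, all genes tested had a median log2 difference of -0.10 with TMM and -0.99 with scaling to the library total, so small differences from control are read against that shift.

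LPS moved nearly all of the 10 genes, in both directions. Plk2, Plk3, Gadd45b, Gadd45a, Cdkn1a, Phlda3 and Ccng1 were higher in LPS than in control cells, by 202-fold for Plk2 down to 1.92-fold for Ccng1. Btg2 and Trp53 were lower, and Mdm2 did not pass the test. That made 7 higher and 2 lower of 10, where 73.8% of all genes tested were called, 35.6% higher and 38.3% lower. With scaling to the library total the split was 6 higher and 3 lower of the 10 genes, and 2467 higher and 8305 lower of all genes, against 5003 higher and 5381 lower with TMM. By TMM, the 9 genes called also did not overlap between the groups, as did 75.3% of all genes tested. Over the 10 genes the log2 fold change had a median of 2.14, against -0.10 over all genes tested. The 10 genes were chosen with earlier results of these data known, so their median describes these genes only and not p53 targets in general. In bulk RNA, fewer cells that express a gene and less RNA of it per cell cannot be told apart.

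**Figure D1:**
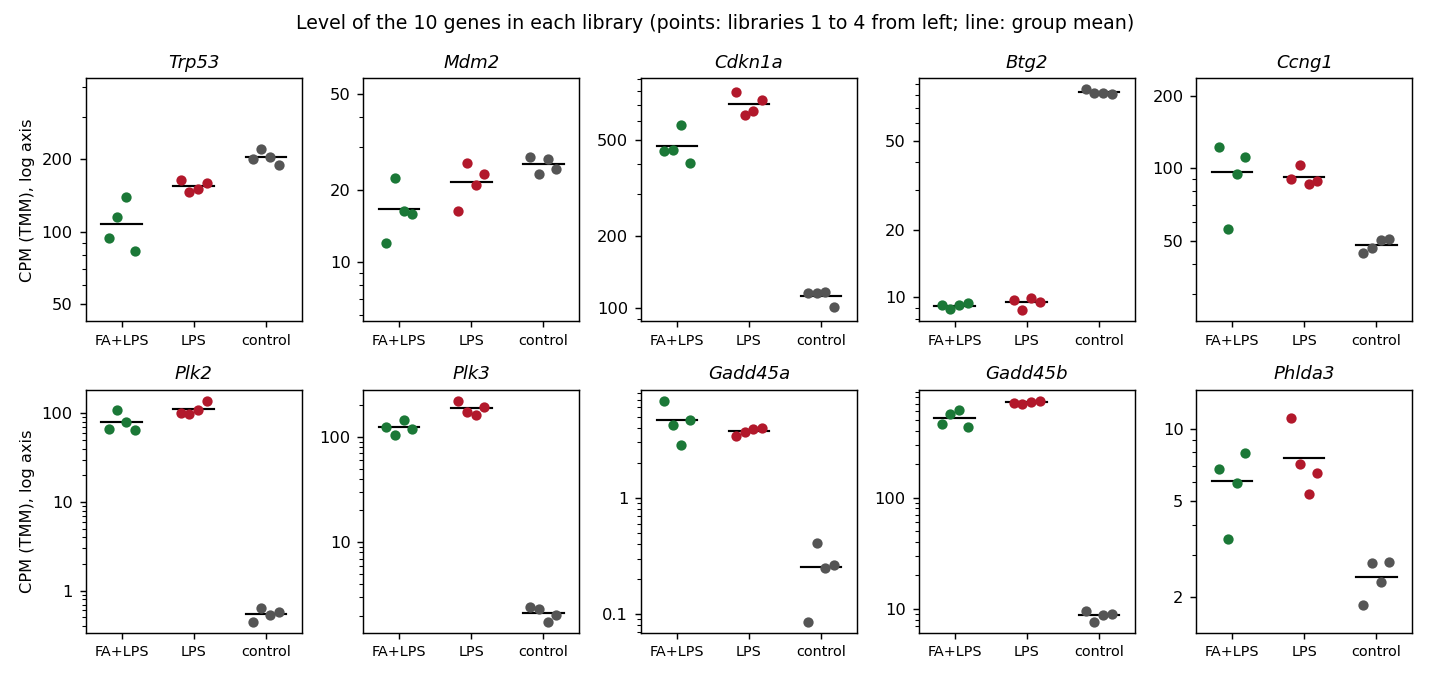
Level of each of the 10 genes in every library, in CPM on TMM-scaled library sizes (log axis); each point is 1 library, libraries 1 to 4 from the left, and the line is the group mean. Plk2, Plk3 and Gadd45b are near the bottom of their axes in control and far higher in both groups given LPS, while Btg2 is the reverse.

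In LPS against control with TMM scaling, Trp53 and its inhibitor Mdm2 had the smallest differences of the 10 genes. Trp53 had 94.0, 115, 139 and 83.3 CPM in FA plus LPS libraries 1 to 4, against 163, 146, 150.4 and 159.5 CPM in LPS and 201, 219.8, 204 and 189 CPM in control. The 3 groups did not overlap, with control highest and FA plus LPS lowest. In LPS against control the log2 fold change was -0.39 (SE 0.15, adjusted p = 0.0231), and the gene fell. That call rests on single libraries: the adjusted p was 0.0628 without control library 2, 0.0629 without LPS library 2 and 0.0546 without LPS library 3. With scaling to the library total Trp53 stood at -1.29, and over all alternatives the adjusted p ran from 6.63e-06 to 0.0629. Mdm2 had 12.0, 22.4, 16.3 and 15.8 CPM in FA plus LPS, against 16.4, 25.9, 20.9 and 23.2 CPM in LPS and 27.3, 23.2, 26.9 and 24.3 CPM in control. The LPS libraries spread across much of the range of the other groups, and LPS against control gave -0.24 (SE 0.18, adjusted p = 0.247). With scaling to the library total, Mdm2 was called lower in LPS than in control, at -1.13 (adjusted p = 0.000307; the alternatives gave 0.000233 to 0.576), about as far below 0 as the median of all genes under that scaling.

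Trp53 shares its locus with Wrap53, a telomerase and Cajal body protein gene read from the other strand, and without the authors' strand setting their shared reads cannot be told apart. Wrap53 averaged 12.9 CPM in LPS and 8.95 CPM in control, far below Trp53. Its log2 fold change was 0.53 with TMM scaling and -0.37 with scaling to the library total.

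Around the Trp53 start, the RefSeq promoter window holds a match to the NF-kB consensus that spans the start itself. The window is shown because Trp53 alone of the 10 genes has such a match. It lies on the plus strand of build GRCm38.p6 at chr11:69580109-69580388, from 250 bases before to 30 bases after the start, and the match, at -5 to 5, is in capitals.
Trp53: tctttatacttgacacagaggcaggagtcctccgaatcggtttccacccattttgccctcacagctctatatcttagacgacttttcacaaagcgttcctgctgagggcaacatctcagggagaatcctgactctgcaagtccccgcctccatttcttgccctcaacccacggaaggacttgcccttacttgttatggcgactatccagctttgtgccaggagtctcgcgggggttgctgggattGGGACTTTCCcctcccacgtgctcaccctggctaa
Of 32851 RefSeq windows of this length, 4.22% hold an NF-kB consensus match on either strand. All 10 genes had a window (11 in all, since Cdkn1a has 2 annotated starts). RefSeq's build is earlier than the GRCm39 build named in the submitters' processing notes, so these positions belong to the sequences only. A match is a run of letters and no evidence of binding.

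Among the genes that halt the cycle, Cdkn1a and Btg2 went opposite ways. Cdkn1a encodes p21, the inhibitor of cyclin-dependent kinases through which p53 arrests cells in G1. It had 451, 455, 581 and 401 CPM in FA plus LPS, against 789.9, 635, 662 and 732 CPM in LPS and 116, 116, 117 and 101 CPM in control. No group overlapped another, with LPS highest and control lowest. LPS raised it 6.28-fold over control (log2 fold change 2.65, SE 0.15, adjusted p = 9.92e-11). Btg2, an antiproliferative protein that recruits the CCR4-NOT deadenylase, had 9.24, 8.84, 9.22 and 9.40 CPM in FA plus LPS, against 9.76, 8.73, 9.91 and 9.51 CPM in LPS and 84.7, 81.7, 81.5 and 81.0 CPM in control. Its libraries lay close together within each group, and both groups given LPS lay far below control. It fell in LPS by 3.12 on the log2 scale, which left it 8.67-fold lower than in control (SE 0.12, adjusted p = 1.06e-12).

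Ccng1, cyclin G1, is a p53 target that brings a phosphatase to Mdm2. It had 123, 55.9, 94.2 and 111 CPM in FA plus LPS, against 90.0, 104, 86.3 and 88.5 CPM in LPS and 44.3, 46.7, 50.2 and 50.8 CPM in control. Both groups given LPS lay above control, and FA plus LPS libraries 1 and 2 spanned the whole range of the LPS libraries. It rose in LPS by TMM scaling (log2 fold change 0.94, SE 0.18, adjusted p = 0.000222). With scaling to the library total the difference was 0.04 (adjusted p = 0.824, the highest over the alternatives, with 3.79e-08 the lowest). In FPKM, which carries that scaling, Ccng1 averaged 21.6 ± 4.65 in FA plus LPS, 21.4 ± 1.69 in LPS and 20.8 ± 1.43 in control (SD, n = 4 each).

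The Cdkn1a window at its upstream start is the only one of the 11 with a p53 element. A p53 element is a pair of half-sites, here searched on both strands with a spacer of at most 13 bases and 1 mismatch outside the core of 1 half-site. The match, at -51 to -32, has no spacer and is in capitals; the window is chr17:29090729-29091008, plus strand, GRCm38.p6.
Cdkn1a: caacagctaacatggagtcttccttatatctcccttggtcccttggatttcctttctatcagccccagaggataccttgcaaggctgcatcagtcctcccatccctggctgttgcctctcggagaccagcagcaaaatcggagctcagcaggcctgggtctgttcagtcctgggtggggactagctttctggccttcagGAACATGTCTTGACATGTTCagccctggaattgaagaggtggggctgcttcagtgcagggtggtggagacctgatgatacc
Of all windows, 0.399% hold such an element. The other 9 genes hold none in their windows, which are short and leave out introns, where elements of Mdm2 are known to lie.

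The polo-like kinases Plk2 and Plk3, early response kinases that take part in stress checkpoints, were nearly silent in control cells. Plk2 had 66.9, 110.4, 79.6 and 65.2 CPM in FA plus LPS, against 99.9, 97.6, 111 and 139 CPM in LPS and 0.447, 0.634, 0.537 and 0.584 CPM in control. The control values rest on 26 to 39 reads per library. FA plus LPS library 2 lay within the range of the LPS libraries and the other 3 below it. Plk2 rose 202-fold in LPS over control (log2 fold change 7.66, SE 0.24, adjusted p = 7.18e-14), the 96th highest fold change of 14065 genes. Plk3 had 125, 104, 144 and 118 CPM in FA plus LPS, against 219, 171, 159 and 193 CPM in LPS and 2.44, 2.35, 1.76 and 2.05 CPM in control. The 3 groups did not overlap. Plk3 rose 86.4-fold (log2 fold change 6.43, SE 0.19, adjusted p = 3.16e-14).

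Plk2 and Btg2, which LPS moved furthest up and furthest down among the 10 genes, both hold the cAMP response element TGACGTCA, which reads the same on both strands. It lies at -62 to -55 of Plk2 (chr13:110394794-110395073, plus strand) and at -166 to -159 of Btg2 (chr1:134079126-134079405, minus strand), in capitals, both in GRCm38.p6.
Plk2: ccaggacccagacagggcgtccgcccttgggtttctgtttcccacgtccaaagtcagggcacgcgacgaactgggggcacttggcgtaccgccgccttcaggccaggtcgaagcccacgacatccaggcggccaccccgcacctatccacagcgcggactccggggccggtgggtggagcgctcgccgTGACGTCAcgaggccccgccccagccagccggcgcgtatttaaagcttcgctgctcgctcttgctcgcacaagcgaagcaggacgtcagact
Btg2: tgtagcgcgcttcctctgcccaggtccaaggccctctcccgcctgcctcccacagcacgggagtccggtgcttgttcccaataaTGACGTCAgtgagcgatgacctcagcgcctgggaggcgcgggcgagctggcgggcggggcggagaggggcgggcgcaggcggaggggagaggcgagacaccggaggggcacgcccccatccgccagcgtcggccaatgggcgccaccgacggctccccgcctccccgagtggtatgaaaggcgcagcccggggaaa
Of all windows, 1.74% hold this element. Plk2 and Btg2 moved in opposite directions, and any part of the element in their responses was not tested. None of the 4 matches shown overlaps a match to another of the motifs searched, and the remaining 7 windows hold none of them.

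The GADD45 proteins bind the kinase MTK1 and feed p38 and JNK signalling; Gadd45a is a classic p53 target and Gadd45b a classic NF-kB target. Gadd45b had 465, 563, 609.6 and 437 CPM in FA plus LPS, against 718, 698, 733 and 744 CPM in LPS and 9.65, 7.65, 8.75 and 8.93 CPM in control. The LPS libraries were tight and lay above all 4 FA plus LPS libraries. Gadd45b rose 82.7-fold in LPS over control (log2 fold change 6.37, SE 0.17, adjusted p = 1.86e-14). Gadd45a, on far fewer reads, had 6.84, 4.22, 2.84 and 4.66 CPM in FA plus LPS, against 3.37, 3.72, 3.94 and 3.98 CPM in LPS and 0.0860, 0.410, 0.248 and 0.264 CPM in control. Control library 1 held 5 reads of it and the other control libraries 14 to 22, so its fold over control is loose. Every library given LPS lay above every control library. It rose by 3.89 on the log2 scale (SE 0.38, adjusted p = 1.10e-07). Phlda3 is a small pleckstrin homology protein that competes with the kinase Akt for membrane lipids. It had 6.84, 3.49, 5.96 and 7.93 CPM in FA plus LPS, against 11.1, 7.13, 5.35 and 6.58 CPM in LPS and 1.86, 2.76, 2.31 and 2.81 CPM in control. LPS library 1 was the highest and control the lowest group, and FA plus LPS overlapped LPS. It rose in LPS (log2 fold change 1.63, SE 0.28, adjusted p = 5.20e-05), and by 0.72 with scaling to the library total, where its adjusted p of 0.0141 was the highest over the alternatives (lowest 3.66e-08).

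The second comparison asks whether ferulic acid given before LPS changed the response. None of the 10 genes passed edgeR's test in FA plus LPS against LPS, where 0.284% of all genes tested were called (40 genes, with 0.0853% higher and 0.199% lower). At an unadjusted p under 0.05 there were 5 of the 10 genes: Trp53, Cdkn1a, Plk2, Plk3 and Gadd45b; 23% of all genes tested were under it too. The DESeq2 test called 4, all lower in FA plus LPS (Trp53, Cdkn1a, Plk3 and Gadd45b), where it called 1041 of the 9961 genes it gave an adjusted p, 5.11% higher and 5.34% lower. limma on log2 FPKM called none. The 10 genes had a median log2 fold change of -0.42, against 0.02 over all genes tested, and 8 of 10 were negative. Since they were chosen with earlier results of these data known, this describes these genes only. For those same 4 genes every FA plus LPS library lay below every LPS library, while over all genes tested 7.02% did not overlap in either direction.

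Plk3 averaged 123 ± 16.5 CPM in FA plus LPS and 186 ± 26.4 CPM in LPS (SD, n = 4 each), which is -0.60 on the log2 scale (SE 0.15, adjusted p = 0.0768). Cdkn1a averaged 472 ± 76.4 CPM in FA plus LPS and 705 ± 69.9 CPM in LPS, or -0.58 on the log2 scale (SE 0.14, adjusted p = 0.0738). Trp53 averaged 108 ± 24.7 CPM in FA plus LPS and 155 ± 7.92 CPM in LPS, or -0.52 on the log2 scale (SE 0.15, adjusted p = 0.0960). In linear terms they were 1.51-fold lower for Plk3, 1.49-fold for Cdkn1a and 1.43-fold for Trp53, small beside the LPS response of Plk3 and Cdkn1a. For Trp53, the -0.52 was further from 0 than its -0.39 in LPS against control with TMM. With scaling to the library total these Trp53 values were -0.51 and -1.29. Gadd45b gave -0.48 (SE 0.13, adjusted p = 0.0941), Plk2 -0.47 (SE 0.17, adjusted p = 0.136) and Mdm2 -0.37 (SE 0.18, adjusted p = 0.229). Phlda3 gave -0.32 (95% interval -0.89 to 0.25), Btg2 -0.05 (-0.29 to 0.19), Ccng1 0.06 (-0.33 to 0.45) and Gadd45a 0.30 (-0.38 to 0.98). In this fit the intervals of Btg2 and Ccng1 leave out a change of the size fitted for Cdkn1a, Plk3 or Trp53 in either direction. The interval of Gadd45a leaves out such a fall but not such a rise, and that of Phlda3 the reverse. For Gadd45a and Phlda3 the interval is wide. The fit takes 1 spread per gene over all 3 groups. Ccng1 had an SD of 29.2 CPM in FA plus LPS, against 7.79 CPM in LPS and 3.06 CPM in control. Its interval may therefore be too narrow, and what that interval leaves out is not firm.

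FA plus LPS libraries 1 and 4 stood apart on the second component, and the differences depended on which libraries were in the fit. Without libraries 1 and 4 no member was called, and the difference was smaller for Trp53 (-0.28), Gadd45b (-0.30), Plk2 (-0.23), Mdm2 (-0.16) and Cdkn1a (-0.44). In that fit Plk3 stood at -0.58 and Btg2 at -0.07, close to their values with all libraries, and Phlda3 was further from 0, at -0.67. Without libraries 2 and 3, 7 members were called: Trp53, Cdkn1a, Mdm2, Plk2, Plk3 and Gadd45b lower and Ccng1 higher. That fit also called 37.7% of all genes, 17.9% higher and 19.8% lower, so the count is not read as particular to the members. There Trp53 stood at -0.82, Cdkn1a at -0.74, Ccng1 at 0.33 and Phlda3 at -0.036, and Gadd45a, which stood at -0.088 without libraries 1 and 4, at 0.60. Leaving out library 2 alone called 6 members lower beside 18.4% of all genes, and leaving out library 3 alone called 4 beside 9.76%. Leaving out any other single library called none. Libraries 1 and 4 also had the highest share of counts in ribosomal protein genes, and the part of either in these differences was not tested.

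**Figure D2:**
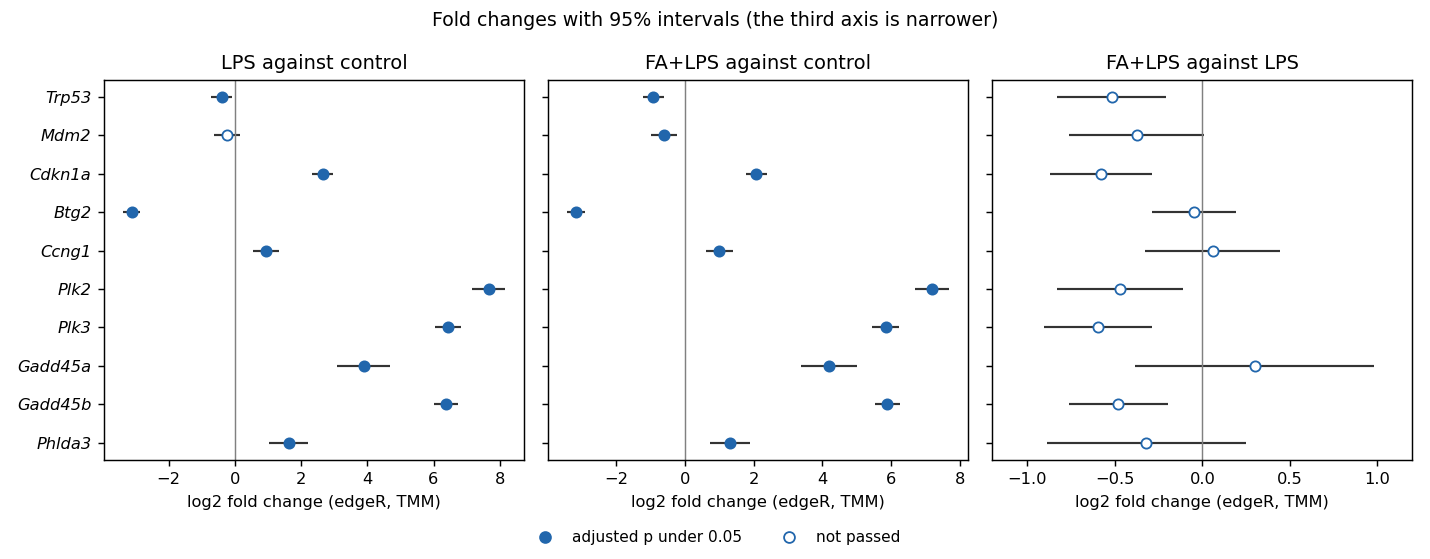
log2 fold change of each of the 10 genes with its 95% interval in LPS against control (left), FA plus LPS against control (middle) and FA plus LPS against LPS (right, on a narrower axis); filled points passed an adjusted p under 0.05. The left and middle panels share the control libraries; Mdm2 is open on the left and filled in the middle, and no point is filled on the right.

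FA plus LPS against control shares its control libraries with LPS against control, so it is given only beside it. All 10 genes were called, 7 higher and 3 lower, where 73.3% of all genes tested were, 35.8% higher and 37.5% lower. None of the 10 overlapped between these groups, like 68.2% of all genes tested. Mdm2 was the gene added: its log2 fold change was -0.61 (SE 0.18, adjusted p = 0.00623) in FA plus LPS against control and -0.24 in LPS against control. That call was lost without FA plus LPS libraries 1 and 4, at -0.39 (adjusted p = 0.0680), and held in the other alternatives, down to an adjusted p of 1.92e-05. Trp53 stood at -0.91 (SE 0.15) in FA plus LPS against control, Cdkn1a at 2.07 (SE 0.14) and Plk2 at 7.19 (SE 0.23). Plk3 stood at 5.84, Gadd45b at 5.89, Gadd45a at 4.19, Phlda3 at 1.31, Ccng1 at 1.00 and Btg2 at -3.16. With scaling to the library total 5 of the 10 genes were higher and 3 lower, beside 2536 higher and 8268 lower of all genes, against 5038 higher and 5277 lower with TMM. Under that scaling Ccng1 (0.06, adjusted p = 0.753) and Phlda3 (0.37, adjusted p = 0.180) were not called. Over all alternatives the adjusted p ran from 1.01e-08 to 0.851 for Ccng1 and from 1.10e-05 to 0.180 for Phlda3.

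Ratios of FPKM within a library do not depend on how libraries are scaled to each other. The 4 pairs of genes were chosen after their values were seen. Cdkn1a to Trp53 was 5.45, 4.50, 4.74 and 5.48 in FA plus LPS, against 5.52, 4.95, 5.02 and 5.22 in LPS and 0.655, 0.599, 0.654 and 0.606 in control. So p21 mRNA stood above Trp53 mRNA in every library given LPS and below it in every control library, and the ratio was 8.24-fold higher in LPS than in control. Between FA plus LPS and LPS, where both genes averaged lower with ferulic acid, the ratio overlapped (0.972-fold, two-sided exact permutation p = 0.571). Mdm2 to Trp53 averaged 0.125 ± 0.0321 in FA plus LPS, 0.112 ± 0.0252 in LPS and 0.0999 ± 0.0109 in control (SD, n = 4 each). Its groups overlapped in all 3 comparisons, and LPS against control gave a two-sided exact permutation p of 0.4.

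Plk2 to Plk3 averaged 0.380 ± 0.144 in FA plus LPS, 0.344 ± 0.0683 in LPS and 0.147 ± 0.0302 in control, so Plk3 was the more abundant per length in every library. The ratio was 2.35-fold higher in LPS than in control, with no overlap, while FA plus LPS library 2 stood alone at 0.597. Gadd45b to Gadd45a was 75.4, 148, 238 and 104 in FA plus LPS, against 236, 208, 207 and 208 in LPS and 125, 20.7, 39.2 and 37.6 in control. It was even among LPS libraries 2 to 4, higher in LPS library 1 and widely spread in FA plus LPS. Over the 12 comparisons of ratios the smallest p that 4 against 4 libraries allow is 0.0286, and the smallest adjusted p was 0.0686, so none passed 0.05.

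**Figure D3:**
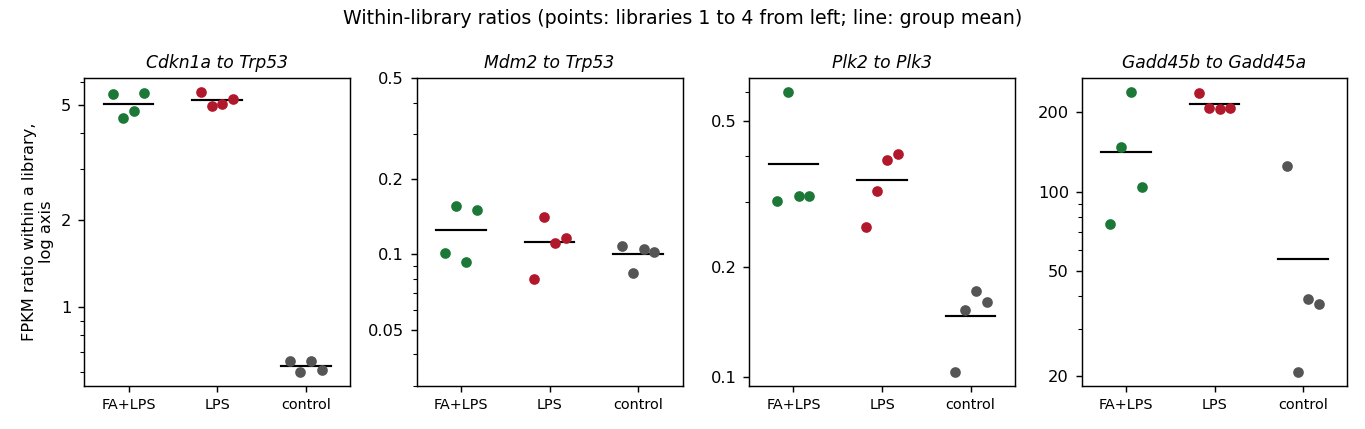
Ratio of FPKM of 2 genes within each library (log axis), 1 panel per pair; each point is 1 library, libraries 1 to 4 from the left, and the line is the group mean. Cdkn1a to Trp53 lies between 4.50 and 5.52 in both groups given LPS and between 0.599 and 0.655 in control, while Mdm2 to Trp53 overlaps among all 3 groups.

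Most of the 10 genes belong to small families, and the most abundant relative differed between the groups given LPS and control among the polo-like kinases and the Phlda genes. In control cells the mitotic kinase Plk1 made up 89.6% of the summed FPKM of the 4 polo-like kinases with tested values. Plk3 made up 61.4% in FA plus LPS and 65.5% in LPS, against 2.12% in control, and Plk2 made up 22.8% in FA plus LPS and 22.3% in LPS, against 0.306% in control. Plk1 itself was lower in LPS than in control (log2 fold change -1.71, SE 0.14), and Plk4, the centriole duplication kinase, did not pass (-0.39, adjusted p = 0.0700). Plk4 was called lower in 8 of 22 alternatives, at -1.29 with scaling to the library total, and its adjusted p over the alternatives ran from 5.98e-06 to 0.154.

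Cdkn1a made up 96.3% of the sum of Cdkn1a and Cdkn1b in FA plus LPS and 98.4% in LPS, against 67.4% in control. Cdkn1b, which encodes the related inhibitor p27, fell by 2.30 on the log2 scale in LPS (SE 0.26). Gadd45b made up at least 94.2% of its family in every library of all 3 groups. Gadd45g, the third GADD45 gene, rose by 6.70 on the log2 scale (SE 0.30) and so moved with Gadd45b. Phlda3 made up 94.2% of the sum with Phlda1 in control, and Phlda1, a relative with a pleckstrin homology-like domain, took over with 90.4% in FA plus LPS and 87.3% in LPS. Phlda1 rose by 8.46 on the log2 scale (SE 0.29), further than Phlda3.

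Btg2 made up 3.31% of the summed FPKM of Btg1, Btg2, Tob1 and Tob2 in FA plus LPS and 3.53% in LPS, against 28.3% in control. Tob1 fell by 2.87 (SE 0.24) and Tob2 by 2.38 (SE 0.20) on the log2 scale, as Btg2 did. Btg1 was the exception: its log2 fold change was 0.64 with TMM scaling and -0.26 with scaling to the library total. Ccng1 made up 86.9% of the sum with Ccng2 in FA plus LPS and 89.5% in LPS, against 50.4% in control. Ccng2, cyclin G2, fell by 2.12 on the log2 scale (SE 0.19). Trp63, Cdkn1c and Phlda2 have no row in the table, and Trp73, Plk5, Btg3 and Btg4 stayed under the filter on low counts.

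**Figure D4:**
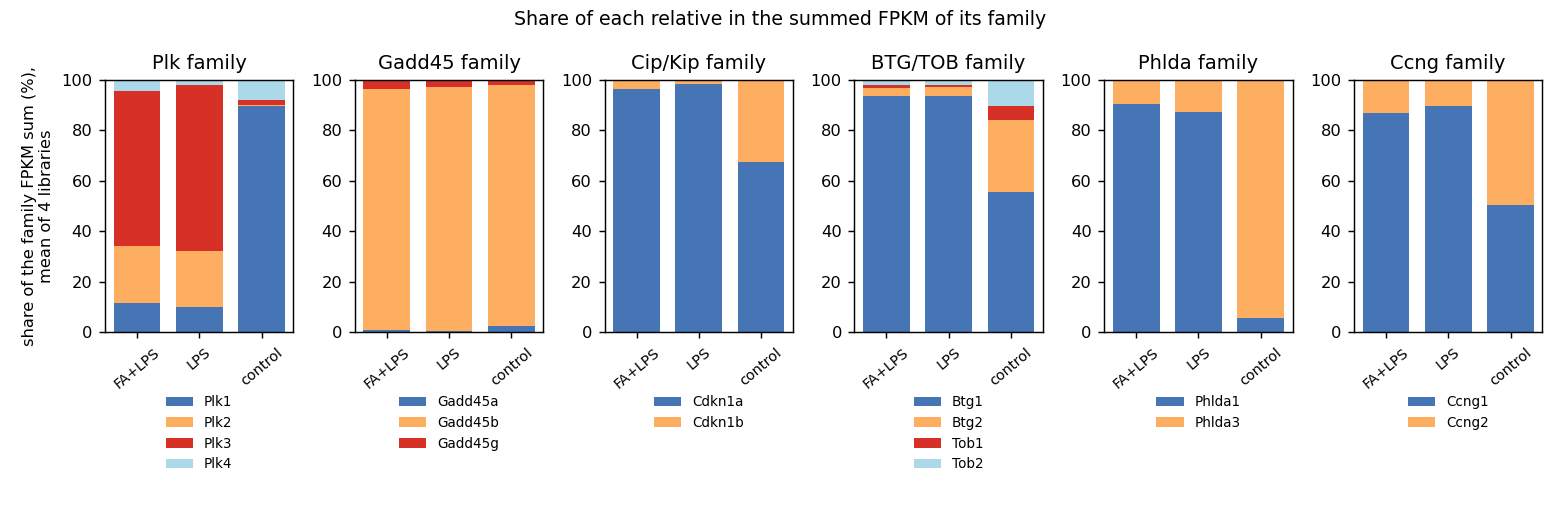
Mean share of each relative in the summed FPKM of its family (%, 4 libraries per group), for the 6 families that hold 8 of the 10 genes. Plk1 takes 89.6% of the polo-like kinases in control and Plk3 61.4% and 65.5% in FA plus LPS and LPS, and the members of the other families except Gadd45 also trade shares.

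Other genes of the p53 network did not move as one block in LPS against control. Of 18 further p53 targets in DNA repair and metabolism, 1 was called higher and 8 lower, with a median log2 fold change of -0.44. Sesn1 (-2.94, SE 0.16), which restrains mTORC1, and Trp53inp1 (-2.89, SE 0.37), which promotes p53-dependent death and autophagy, were the furthest down. The 1 called higher was Psrc1, a spindle protein gene (0.35, adjusted p = 0.0405), which stood at -0.55 with scaling to the library total. The Psrc1 call was lost in 7 further alternatives (highest adjusted p 0.128): no low-count filter, without control library 1 or 4, and without any 1 of the 4 LPS libraries. Of 11 tested p53 targets in cell death, 7 were higher and 4 lower, with a median of 1.76. Gdf15, a stress cytokine (6.11, SE 0.38), and Fas, a death receptor (5.45, SE 0.35), were the furthest up, and Pidd1 (-2.66, SE 0.43) and Steap3 (-1.81, SE 0.26) the furthest down. Of 17 tested regulators of p53, 4 were higher and 10 lower, with a median of -1.03. The checkpoint kinase Chek2 (-2.97, SE 0.20) and the acetyltransferase Ep300 (-2.84, SE 0.17) fell furthest. The ribosomal protein-like gene Rps27l (2.06, SE 0.34), itself a p53 target that binds Mdm2, and the ubiquitin ligase Rchy1 (1.11, SE 0.14) were the furthest up, and Rchy1 lost its call with scaling to the library total. Over all genes tested, 73.8% were called and the median was -0.10.

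On the side of the cell cycle, 11 of 12 mitosis genes were called lower in LPS, with a median of -1.43, and none was higher. Of all genes tested, 38.3% were called lower and 35.6% higher. The p21 and DREAM route is known to lower these mitosis genes, but its part here was not tested. Cenpf (-4.13, SE 0.22) and Mki67 (-3.60, SE 0.17) fell furthest. The cyclin list held 18 tested genes: cyclins, G1 kinases, INK4 inhibitors, pocket proteins, E2F genes and Pcna. Cdkn2b, also listed, has no row in the table. Of the 18 genes, 5 were higher and 10 lower, with a median of -0.57. Ccnd2, cyclin D2 (3.84, SE 0.26), and Cdkn2d, the inhibitor p19 (1.95, SE 0.13), were the furthest up, and the pocket proteins Rbl2 (-3.10, SE 0.24) and Rb1 (-2.15, SE 0.15) the furthest down. With scaling to the library total the counts became 0 higher and 18 lower for repair and metabolism, 5 and 4 for cell death, 1 and 13 for regulators, 0 and 12 for mitosis and 3 and 13 for the cyclin list. That scaling called 17.5% of all genes tested higher and 59% lower, against 35.6% and 38.3% with TMM. The change in these counts is therefore not read as particular to the lists. In FA plus LPS against LPS the lists held 1 call, Rb1 (0.74, adjusted p = 0.0476), and 16 of 22 alternative settings lost it. The 12 mitosis genes had a median of 0.24 there, with 11 positive and none called, while the 10 genes had -0.42 and all genes tested 0.02.

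**Figure D5:**
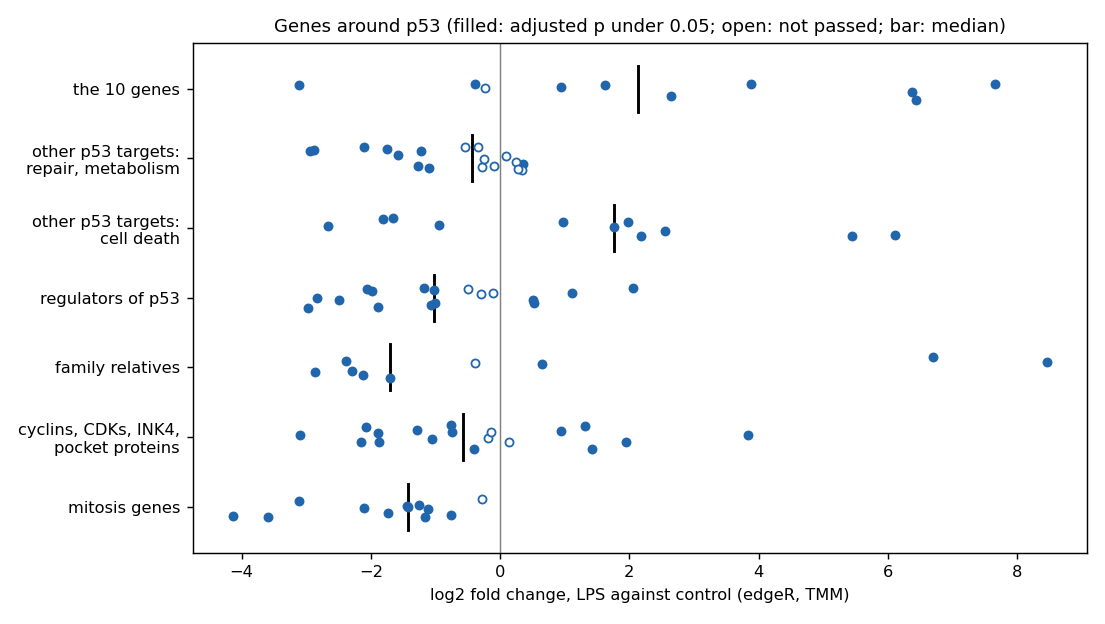
log2 fold change in LPS against control of every tested gene of each list; filled points passed an adjusted p under 0.05 and the bar is the list's median. The 10 genes span -3.12 to 7.66 with a median of 2.14, while the mitosis genes all lie below 0.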

How the data were processed

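Whole-number read counts per gene and library were deposited by the authors, per the file headers, with no normalization. FPKM values stand beside them, deposited by the authors per the file headers, each proportional to the count over gene length and library total. The submitters' processing notes name build GRCm39, edgeR 3.36.0, DESeq2 1.34.0, featureCounts 2.0.6, HISAT2 2.2.1 and fastp 0.23.4, without roles or order. The strand setting is not stated in the sources used here. Counts of all 12 libraries were fitted once with edgeR 4.0.16 (quasi-likelihood test, limma 3.58.1, R 4.3.3), group as the only term, TMM scaling and filterByExpr, which left out 11127 genes holding 0.0421% of the reads. Calls are at adjusted p under 0.05 (Benjamini-Hochberg, 14065 genes). The fit was tested on simulated data. SE was taken as log2 fold change divided by the root of F; intervals are 95%. No pair of libraries within a group agreed within sampling noise (chi-square per gene at least 9.18), so none was taken as a second deposit of another; n counts libraries.

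The 10 genes and the gene lists (further p53 targets in repair and metabolism and in cell death, regulators of p53, family relatives, cyclins and related genes, mitosis genes, macrophage markers, markers of other cell types) were chosen with earlier results of these data known. All 10 genes are named, and of each other list per comparison up to 2 called genes in each direction with the largest change and a mean log2 CPM of at least 1, all tested family relatives, and Wrap53. Scaled levels are counts per TMM-adjusted library size. Promoter sequences are from RefSeq (GRCm38.p6), matched by symbol. Alternatives were other scalings, DESeq2 1.42.0, no filter, 2 groups only, a replicate block, limma on log2(FPKM + 1) and log2(FPKM + 0.1), and leaving libraries out.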

Additional observations from a re-analysis of the deposited data

Results flagged for a closer look

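Of 42 groups of 4 libraries examined (the log2 CPM of the 10 genes and the 4 ratios in each of the 3 groups), 3 had a library so far from its nearest neighbour that the gap, as a share of the group's range, passed Dixon's 95% limit, which chance passes in about 1 in 20 groups. For Cdkn1a in control the share was 0.911, with control library 4 at 101 CPM and the other control libraries at 116 to 117 CPM. For the ratio of Plk2 to Plk3 in FA plus LPS it was 0.956, with library 2 at 0.597 and the others at 0.303 to 0.312. For the ratio of Gadd45b to Gadd45a in LPS it was 0.950, with library 1 at 236 and the others at 207 to 208.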

How the results depend on the processing

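For FA plus LPS against LPS, where edgeR called 40 genes and none of the 10 members, the count over all genes was 2 with scaling to the library total, 719 without the low-count filter and 1041 with DESeq2. It was 1 with limma on log2(FPKM + 1) and 0 with limma on log2(FPKM + 0.1), where 2668 had an unadjusted p under 0.05. With only the 2 groups compared it was 0 (2082 at an unadjusted p under 0.05). Dropping FA plus LPS libraries 1 and 4 gave 7 genes, and dropping 2 and 3 gave 5664. Leaving out each replicate in turn gave 0 to 2670 genes, and 0 to 6 members. Members called were 2 without the filter, 4 with DESeq2 and 7 after dropping FA plus LPS libraries 2 and 3. No pairing by replicate number was seen between FA plus LPS and LPS. Same-numbered libraries correlated from -0.44 to 0.23, and 0 of 4 correlated best with their own number. With 4 libraries per group these values cannot exclude a pairing. With the replicate block 0 genes were called (2450 at an unadjusted p under 0.05).

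In LPS against control, the split over all genes was 5003 higher and 5381 lower with TMM and 2467 higher and 8305 lower with scaling to the library total. Psrc1 then reversed to -0.55, Btg1 to -0.26 and Wrap53 to -0.37; with limma on log2(FPKM + 1) they stood at -0.52, -0.26 and -0.31, and with log2(FPKM + 0.1) at -0.54, -0.26 and -0.36. In FA plus LPS against LPS, Gadd45a reversed to -0.088 without FA plus LPS libraries 1 and 4. Ccng1 reversed to -0.29 without both of these and ranged from -0.080 to 0.24 when each replicate was left out in turn, negative without library 1 or 4. It stood at -0.0068 with limma on log2(FPKM + 1) and -0.0082 with log2(FPKM + 0.1). For single genes, 1276 values over the alternatives kept direction and call, 34 gained a call, 39 lost it and 15 reversed. For the ratios, where libraries were left out, 106 of 112 values moved by less than the spread between libraries and 6 by more. With 4 libraries per group, leaving out a single library cannot move a value by more than that spread. Such fits cannot show whether the ratios were stable, so the count of 106 is not read as stability. The 6 came from fits that left out more than 1 FA plus LPS library. The cause of the shifts in genes and ratios was not tested.

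Among the 10 genes, depth limits Gadd45a most, with 59 reads over the 4 control libraries, and then Plk2, with 130. Of the other genes named, Gadd45g had 36 control reads, Gdf15 38 and Phlda1 48.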
